A study of Mus musculus with 14 samples.

Results

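The genes described here are the 34 mouse genes of endoplasmic reticulum (ER) folding, ER-associated degradation (ERAD) and secretory translocation, chosen by gene symbol in 4 classes. They are 5 sensors and effectors of the unfolded protein response, 15 chaperones and folding enzymes, 7 ERAD genes and 7 genes of the translocation machinery. All 34 were among the 18781 genes of the deposited table, and 33 passed the filter on low values that left 12802 genes for testing, the exception being *Derl3*. RNA was sequenced from untreated organoids, which are cultures of intestinal epithelium grown from the stem cells of the small intestine, here in Intesticult medium. There were 4 libraries each from WT, *Atg16l1*ΔIEC and *Atg16l1/Rnaseh2b*ΔIEC organoids and 2 from *Rnaseh2b*ΔIEC organoids. WT organoids carried floxed alleles of both genes (ATG16L1flox/flox and RNaseH2Bflox/flox) without Cre recombinase. *Rnaseh2b*ΔIEC organoids were RNaseH2Bflox/flox and *Atg16l1*ΔIEC organoids ATG16L1flox/flox, each with VillinCre+/-, a Cre that acts in intestinal epithelium, and *Atg16l1/Rnaseh2b*ΔIEC organoids, also called doubly deleted here, carried both pairs of floxed alleles with the same Cre. The study asked how loss of ATG16L1, a protein of autophagosome formation, changes the epithelium of mice that lack RNase H2, the enzyme that removes ribonucleotides from DNA, and it also dealt with the ER stress factor XBP1. The age of the animals behind these cultures is not given in the sources used here, nor whether the libraries of a genotype came from separate animals, so p-values measure only the spread between these libraries.

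Secretory and membrane proteins enter the ER through the SEC61 channel and are folded there by chaperones such as BiP (*Hspa5*) and by protein disulfide isomerases. Proteins that do not fold are sent back to the cytosol by the SEL1L-HRD1 complex and degraded. When folding capacity falls short, the sensors IRE1 (*Ern1*, and its epithelial form IRE1β, *Ern2*), ATF6 and PERK (*Eif2ak3*) start the unfolded protein response, in which XBP1 and ATF6 raise the transcription of chaperone and ERAD genes. In the intestine, goblet cells and Paneth cells carry the heaviest secretory load, and IRE1β is known from mucus-secreting cells.

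ATF6 and XBP1 are known to act through the ER stress response element (ERSE), here searched as CCAAT, any 9 bases and CCACG on both strands, in RefSeq promoter windows of GRCm38.p6 that reach from 250 bases before to 50 bases after a gene's start. The window was present for 25 of the 34 genes, and 9 of these held at least 1 ERSE, namely 7 chaperone genes and the ERAD genes *Syvn1* and *Derl3*. Among all windows 39 of 32851 held the same letters, or 0.119%. The shorter ERSE-II, searched as ATTGG, any 1 base and CCACG, was found in *Herpud1* and *Dnajb11* and in 0.0365% of all windows, and it did not overlap an ERSE in these genes. The core TGACGTG of the unfolded protein response element was found in *Hspa5* alone of these genes and in 2.01% of all windows. Given 5′ to 3′ on the strand of the gene, with the element in capitals, are the elements of 5 chaperone genes whose RNA levels are described later, of *Herpud1* for the shorter form, and of *Derl3*, which has the element and was at the low end of the table. Only short flanks are shown for *Hspa5*, because an exon of a longer annotated transcript covers the element there. Where the capitals begin with CGTGG, the element reads on the opposite strand.
Hspa5 ERSE, chr2:34772020-34772048, plus strand: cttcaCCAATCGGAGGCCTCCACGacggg
Hsp90b1 ERSE, chr10:86705628-86705687, minus strand: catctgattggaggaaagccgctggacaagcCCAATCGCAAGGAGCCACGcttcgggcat
Dnajc3 ERSE, chr14:118937796-118937855, plus strand: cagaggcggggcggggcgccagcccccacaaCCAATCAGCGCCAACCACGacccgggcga
Calr ERSE, chr8:84847065-84847124, minus strand: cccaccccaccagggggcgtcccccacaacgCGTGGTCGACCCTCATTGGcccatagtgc
Creld2 ERSE, chr15:88819489-88819548, plus strand: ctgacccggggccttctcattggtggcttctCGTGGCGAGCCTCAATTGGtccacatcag
Herpud1 ERSE-II, chr8:94386338-94386397, plus strand: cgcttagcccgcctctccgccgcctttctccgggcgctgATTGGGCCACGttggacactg
Derl3 ERSE, chr10:75893211-75893270, plus strand: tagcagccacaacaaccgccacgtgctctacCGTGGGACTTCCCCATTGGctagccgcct
The *Hspa5* element spans positions -65 to -47 relative to the start, the first *Hsp90b1* element -212 to -194 (a second lies at -107 to -89), the *Dnajc3* element -105 to -87, the *Calr* element -162 to -144 and the *Creld2* element -126 to -108. These matches describe the letters in the windows and are not evidence of binding.

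The deposited values are on a log2 scale whose transformation is not named, and read totals cannot be taken from them, so the depth is unknown. A difference of 1 stands for a doubling, and values of low genes are pulled together, which understates their changes. The library names end in L001 for WT, in L002 for both single knockouts, and in L002 for libraries 1 and 2 and L001 for libraries 3 and 4 of *Atg16l1/Rnaseh2b*ΔIEC. These endings are called lane 1 and lane 2 here, although the labels do not say what they mark. Lane and genotype cannot be told apart in a direct comparison of either single knockout with WT. In addition, libraries 1 and 2 of WT, *Atg16l1*ΔIEC and *Atg16l1/Rnaseh2b*ΔIEC, and likewise 3 and 4, deviated together from their genotype's mean, with correlations across genes of 0.41 to 0.86 in these 6 pairs and of -0.90 to -0.69 in the other 12 pairs within a genotype. The 2 *Rnaseh2b*ΔIEC libraries were taken as 1 such pair by their numbers, which cannot be checked with only 2 libraries. Results are therefore given from the fit of all 14 libraries. Beside it, the counts and main genes are given from a fit with these pairs as a random block. They are also given with a term for lane or from the libraries of a single lane. Only the *Atg16l1/Rnaseh2b*ΔIEC libraries estimate the term for lane, and their split by lane is also their split into pairs. Values of a single knockout against WT with that term therefore carry the difference between those pairs and cannot be taken as corrected for lane. Neither this fit nor the fits within a single lane take account of the pairs, so they treat paired libraries as independent.

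The targeted genes were checked first. *Atg16l1* (chromosome 1, 87755870 to 87792428, plus strand, GRCm38) was at 9.43, 9.54, 9.44 and 9.44 in WT libraries 1 to 4, 6.87, 7.35, 6.75 and 6.73 in *Atg16l1*ΔIEC, 9.52 and 9.53 in *Rnaseh2b*ΔIEC and 8.37, 8.14, 8.57 and 8.47 in *Atg16l1/Rnaseh2b*ΔIEC libraries. It was low in both genotypes that carry its deletion, with no overlap with the others, but higher in *Atg16l1/Rnaseh2b*ΔIEC than in *Atg16l1*ΔIEC organoids by 1.46 (SE 0.12, adjusted p = 2e-05). *Rnaseh2b* (chromosome 14, 62292589 to 62372992, plus strand) was at 8.47, 8.41, 8.58 and 8.70 in WT libraries 1 to 4, 8.71, 8.72, 8.58 and 8.48 in *Atg16l1*ΔIEC, 7.21 and 7.15 in *Rnaseh2b*ΔIEC and 7.92, 7.68, 7.79 and 7.84 in *Atg16l1/Rnaseh2b*ΔIEC libraries. It too fell in both genotypes that carry its deletion, by 1.36 against WT in *Rnaseh2b*ΔIEC and by 0.73 in *Atg16l1/Rnaseh2b*ΔIEC organoids, and it was higher in the latter than in the former by 0.63 (SE 0.09, adjusted p = 0.00074). These are values over whole genes, and the exons removed by Cre are not resolved in them. The targeted transcripts were thus lower than in WT in every library labelled as deleted, but less so where both were deleted together. The tissue markers fit the label of an epithelial culture, since the summed linear level of 6 epithelial genes (*Epcam*, *Cdh1*, *Krt8*, *Krt19*, *Vil1* and *Cdx2*) was between 16.98 and 17.16 on the log2 scale in all 14 libraries, with *Krt19* the most abundant. Of 10 stromal and immune genes, 9 were in the table and 7 of these were below the filter, with a summed level of 6.35 to 6.85 led by *Cd68*. In bulk RNA fewer cells of a type and less RNA per cell cannot be told apart.

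At baseline the genes ranged widely. Per kilobase of annotated exon, *P4hb*, the gene of the protein disulfide isomerase PDI, was highest in WT organoids at 14.39 on the log2 scale, above 99.8% of the genes tested. The glycoprotein chaperone calreticulin (*Calr*) followed at 12.75, then *Pdia3* at 12.50, the ER HSP90 gene *Hsp90b1* at 12.49 and *Hspa5* at 12.42. *P4hb* stood well above *Calr*, while *Pdia3*, *Hsp90b1* and *Hspa5* lay within 0.08 of each other. The lowest of the 33 tested was *Ern2* at 6.30, above 35.4% of the genes tested, and *Eif2ak3*, *Derl2*, *Ern1*, *Dnajb9* and *Sec11c* were all between 7.12 and 7.52. *Derl3*, a derlin of the retrotranslocation step whose RNA is known from professional secretory cells, was at 0.64, 0.64, 0.64 and 0.63 in WT libraries 1 to 4, 0.63, 0.64, 0.64 and 0.63 in *Atg16l1*ΔIEC, 0.63 and 0.63 in *Rnaseh2b*ΔIEC and 0.63, 0.63, 0.67 and 0.64 in *Atg16l1/Rnaseh2b*ΔIEC libraries, and it was not tested. It lay near the table's lower end in every genotype, and its range of 0.04 says little because such values are pulled together.

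Most genes moved little. The median absolute log2 fold change of the 33 genes was between 0.08 and 0.12 in the pairwise comparisons, and at least 30 of 33 were under 0.25 in each of them. In a single limma F test for any difference among the 4 genotypes, 18 of the 33 passed, against 45.8% of all genes tested. These were 10 of 15 chaperones, 3 of 5 sensors, 3 of 6 ERAD genes and 2 of 7 translocation genes. The share, 54.5%, is close to that of all genes, so the group did not stand apart by this count. The heatmap of all 34 genes shows where the differences lie.

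**Figure D1:**
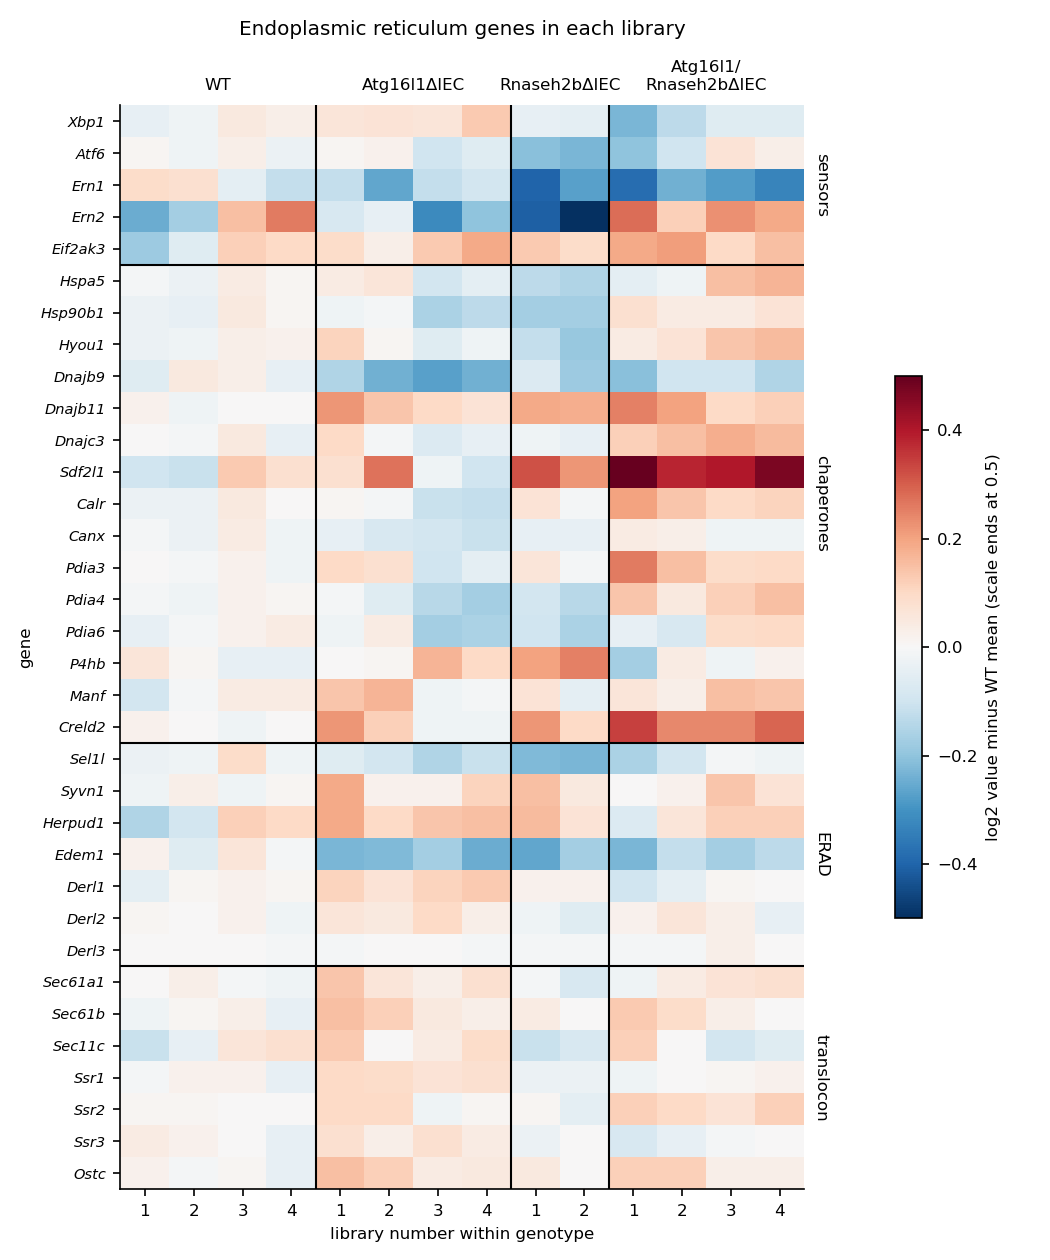
Deposited log2 value of each of the 34 genes in each of the 14 libraries, as the difference from the mean of the 4 WT libraries (colour; red higher, blue lower), by class and genotype. The libraries of *Atg16l1/Rnaseh2b*ΔIEC organoids are red for *Sdf2l1*, *Creld2* and *Dnajc3*, the *Ern2* row is darkest blue in the 2 *Rnaseh2b*ΔIEC libraries, *Edem1* is blue in every knockout library, and *Derl3* is flat.

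In *Rnaseh2b*ΔIEC against WT organoids 3 of the 5 sensor genes fell, while among the 15 chaperones 3 rose and 2 fell. The median of the sensors was -0.22, or -0.01 with lane as a covariate. Of the 33 genes 3 rose and 7 fell, where 14.4% of all genes rose and 12.3% fell, and the median log2 fold change was -0.03. The genes that fell were *Ern1*, *Ern2*, *Atf6*, *Hsp90b1*, *Hyou1*, *Sel1l* and *Edem1*. Those that rose were the chaperone gene *Dnajb11*, the disulfide isomerase gene *P4hb* and *Sdf2l1*. No translocation gene passed. With lane as a covariate 0 of 33 passed (9 at an unadjusted p under 0.05), where 11.7% of all genes did, and with the library pairs as a block 0 passed (8 unadjusted), where 5.69% of all genes did. Without *Rnaseh2b*ΔIEC library 1 the count was 1 and without library 2 it was 3.

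In *Atg16l1*ΔIEC against WT organoids 3 genes rose (*Dnajb11*, *Derl1* and *Ssr1*) and 2 fell (*Edem1* and *Dnajb9*), against 8.73% and 10.4% of all genes, with a median of 0.05. All 7 translocation genes had positive fold changes, from 0.04 to 0.09, but only *Ssr1* passed, and with lane as a covariate 5 of the 7 were positive, from -0.07 to 0.14, and none passed. With lane as a covariate 2 passed, *Derl1* and *Xbp1*, both higher, where 12.4% of all genes passed. With the library pairs as a block 0 passed (4 unadjusted), where 3% of all genes did, and without WT library 1 the count was 3.

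When *Atg16l1/Rnaseh2b*ΔIEC organoids were compared with WT, 6 of the 15 chaperones rose, none fell and 9 did not pass. Those that rose were *Sdf2l1*, *Creld2*, *Dnajb11*, *Dnajc3*, *Calr* and *Pdia4*, and *Ssr2* rose among the translocation genes. *Xbp1*, *Ern1* and *Edem1* fell. In all 7 of 33 rose and 3 fell, where 8.1% of all genes rose and 8.01% fell, and the median was 0.06. Within lane 1, with the 4 WT and 2 *Atg16l1/Rnaseh2b*ΔIEC libraries, 9 passed, 7 of them higher chaperones, where 10.2% of all genes passed. Those *Atg16l1/Rnaseh2b*ΔIEC libraries are a single pair and the WT libraries are 2 pairs, which this fit does not take into account. With the library pairs as a block 0 passed (11 unadjusted), where 0.664% of all genes did, and the count was 6 without WT library 1, without WT library 2 and without *Atg16l1/Rnaseh2b*ΔIEC library 1.

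Against *Rnaseh2b*ΔIEC organoids, the doubly deleted organoids had 8 genes higher and 1 lower, where 11.1% of all genes rose and 14.4% fell. The higher genes were *Ern2*, 5 chaperone genes (*Hspa5*, *Hsp90b1*, *Hyou1*, *Dnajc3* and *Pdia4*), *Sel1l* and *Ssr2*, and the lower one was *P4hb*. The median was 0.09. With total scaling 12 were higher and 1 lower, with a median of 0.14, where 2377 of all genes rose and 1304 fell. Within lane 2 there were 4 calls, all higher (*Ern2*, *Hsp90b1*, *Hyou1* and *Pdia4*), where 21% of all genes passed. With the library pairs as a block *Ern2* and *Hyou1* remained, 2 of 33, where 5.41% of all genes passed. The count was 4 without *Rnaseh2b*ΔIEC library 1, and without library 2 it was 0.

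Against *Atg16l1*ΔIEC organoids, 9 genes rose and 5 fell in the doubly deleted organoids, where 12.6% of all genes rose and 12.5% fell. Chaperones made up 8 of the 9 that rose, namely *Sdf2l1*, *Pdia4*, *Calr*, *Creld2*, *Dnajc3*, *Hsp90b1*, *Pdia3* and *Canx*, and the ninth was *Ern2*. *Xbp1*, *Ern1*, *Derl1*, *Ssr1* and *Ssr3* fell, and the median was 0.04. With total scaling the split was 9 higher and 2 lower, where 1897 of all genes rose and 1335 fell. The higher share of all-gene calls was then 58.7%, beside 50.2% without that scaling. Within lane 2 there were 7 calls, 4 higher and 3 lower, where 24.4% of all genes passed, and with the library pairs as a block only *Pdia4* passed, where 3.73% of all genes did. The count was 7 without *Atg16l1*ΔIEC library 3, 6 without its library 4 and 8 without *Atg16l1/Rnaseh2b*ΔIEC library 1.

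The 2 single knockouts, all in lane 2, differed in 1 gene of 33, *Ssr1*, which was lower in *Rnaseh2b*ΔIEC organoids, where 4.34% of all genes were higher and 2.47% lower. The median was -0.07. With the library pairs as a block 0 passed (3 unadjusted), where 0.476% of all genes did, and the count was 0 after leaving out any of the 6 libraries compared except *Atg16l1*ΔIEC library 3, where it was 2. The 2 comparisons with WT share the WT libraries, and the 3 comparisons with the doubly deleted organoids share those, so their values are given side by side and not as independent evidence.

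**Figure D2:**
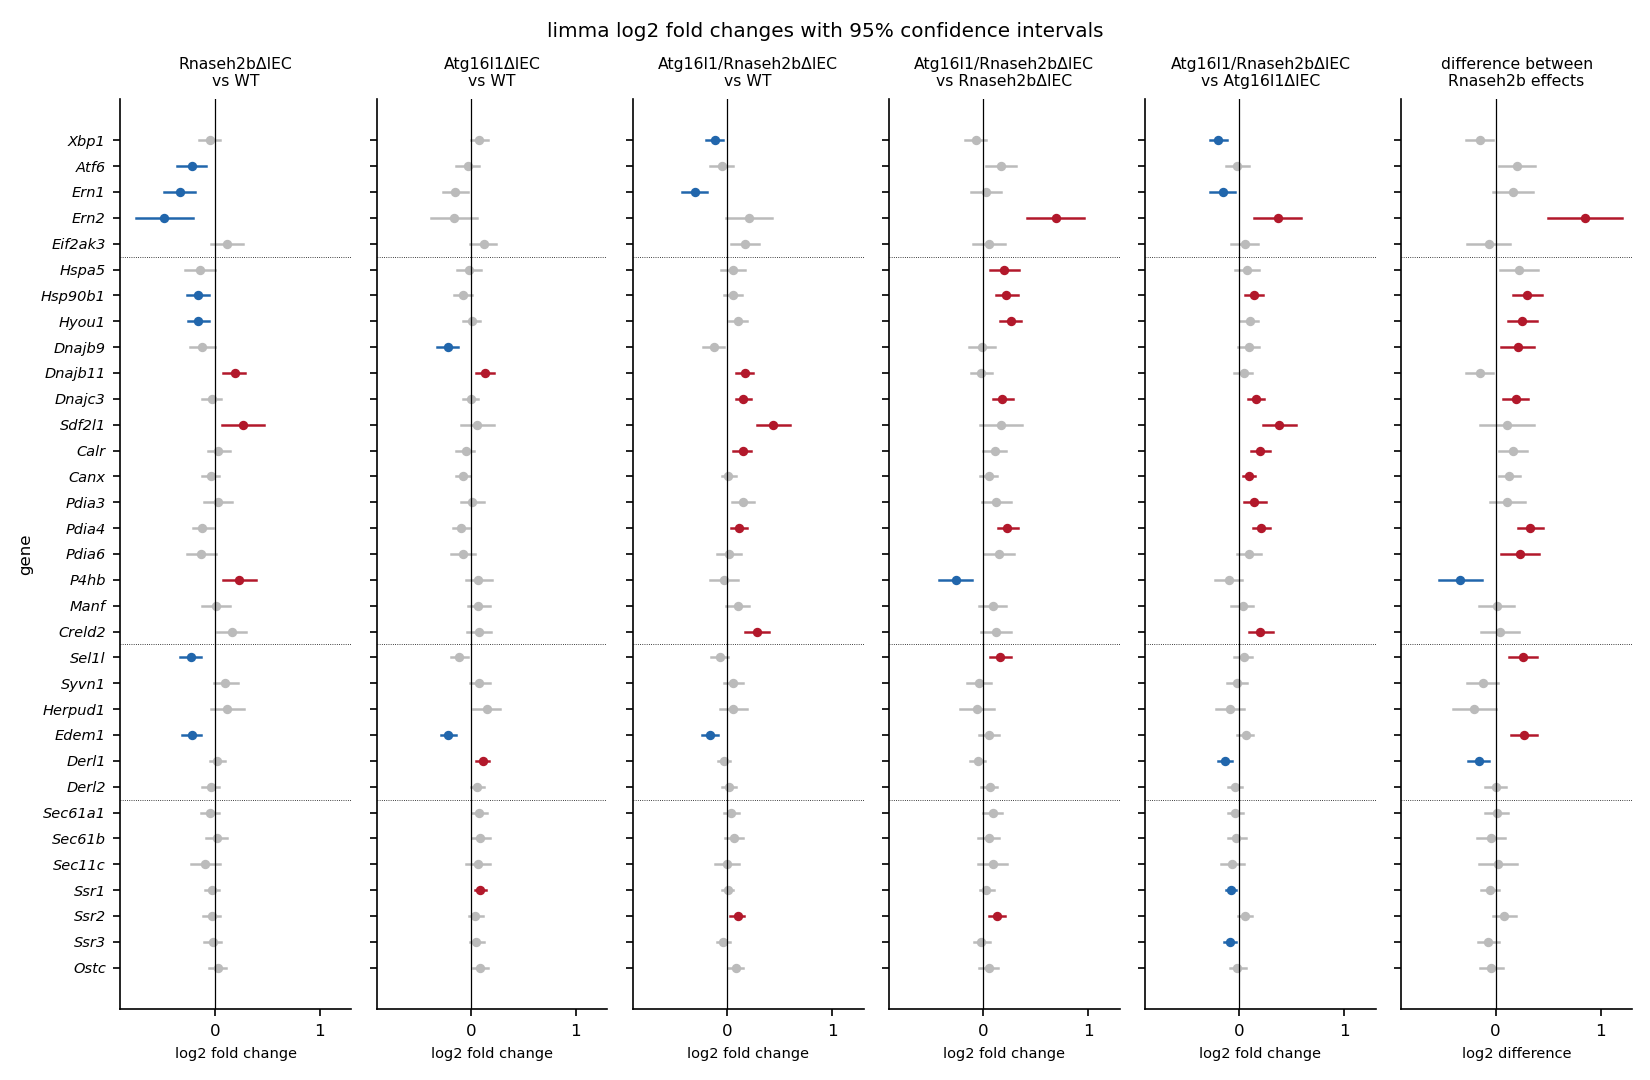
limma log2 fold change (points) with 95% confidence interval (bars) of the 33 tested genes in 5 comparisons, and in the last panel the difference between the *Rnaseh2b* effects with and without *Atg16l1*; red and blue mark an adjusted p under 0.05, grey the rest, and dotted lines separate sensors, chaperones, ERAD and translocation genes. Red points are mostly chaperones in the 3 comparisons of *Atg16l1/Rnaseh2b*ΔIEC organoids, and *Ern2* has the widest range, from -0.48 to 0.69 in the pairwise comparisons shown.

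Of the 60 calls on single genes in the 7 comparisons, 6 passed with the library pairs as a block, namely *Ern2* and *Hyou1* against *Rnaseh2b*ΔIEC, *Pdia4* against *Atg16l1*ΔIEC, and *Ern2*, *Pdia4* and *Hsp90b1* in the interaction described later. Among the sensors and effectors, *Ern2* varied most. Its values were 7.61, 7.69, 8.01 and 8.12 in WT libraries 1 to 4, 7.78, 7.82, 7.54 and 7.66 in *Atg16l1*ΔIEC, 7.45 and 7.30 in *Rnaseh2b*ΔIEC and 8.14, 7.98, 8.09 and 8.05 in *Atg16l1/Rnaseh2b*ΔIEC libraries. Both *Rnaseh2b*ΔIEC libraries were below all other libraries, and the 4 *Atg16l1/Rnaseh2b*ΔIEC libraries lay within 0.16 of each other, above every single-knockout library. *Ern2* fell in *Rnaseh2b*ΔIEC against WT organoids by 0.48 (SE 0.13, adjusted p = 0.014) and was higher in doubly deleted than in *Rnaseh2b*ΔIEC organoids by 0.69 (SE 0.13, adjusted p = 0.0024) and than in *Atg16l1*ΔIEC organoids by 0.37 (SE 0.10, adjusted p = 0.022). The fall against WT was again 0.48 in the other 2 fits. Its adjusted p was 0.13 with lane as a covariate and 0.094 with the library pairs as a block, while the difference from *Rnaseh2b*ΔIEC organoids passed in both. Against WT the doubly deleted organoids were at 0.21 (95% confidence interval -0.01 to 0.43, adjusted p = 0.18). The WT libraries themselves split by library pair, with libraries 1 and 2 below 3 and 4.

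*Ern1*, which encodes the ubiquitous IRE1, was lower than in WT in both genotypes with *Rnaseh2b* deleted. Its values were 10.47, 10.46, 10.33 and 10.26 in WT libraries 1 to 4, 10.26, 10.12, 10.26 and 10.29 in *Atg16l1*ΔIEC, 9.98 and 10.11 in *Rnaseh2b*ΔIEC and 10, 10.14, 10.10 and 10.05 in *Atg16l1/Rnaseh2b*ΔIEC libraries. All 6 libraries with *Rnaseh2b* deleted were below all WT and below all but 1 of the *Atg16l1*ΔIEC libraries. It fell against WT by 0.33 in *Rnaseh2b*ΔIEC (SE 0.07, adjusted p = 0.0037) and by 0.31 in doubly deleted organoids (SE 0.06, adjusted p = 0.0044). The first fall had an adjusted p of 0.064 with lane as a covariate and 0.084 with the library pairs as a block, and the second 0.032 within lane 1 and 0.12 with the pairs as a block.

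*Xbp1*, the transcription factor gene that IRE1 acts on by splicing, was at 12.99, 13.01, 13.08 and 13.06 in WT libraries 1 to 4, 13.09, 13.10, 13.09 and 13.16 in *Atg16l1*ΔIEC, 12.99 and 12.98 in *Rnaseh2b*ΔIEC and 12.80, 12.90, 12.97 and 12.97 in *Atg16l1/Rnaseh2b*ΔIEC libraries. The doubly deleted libraries were below every WT and every *Atg16l1*ΔIEC library, with library 1 the lowest. *Xbp1* fell by 0.12 against WT (SE 0.04, adjusted p = 0.046) and by 0.20 against *Atg16l1*ΔIEC organoids (SE 0.04, adjusted p = 0.0030). Within 1 lane these were -0.06 (adjusted p = 0.28) and -0.26 (adjusted p = 0.0060), so the fall against WT did not pass within lane 1. Gene-level values do not separate spliced from unspliced *Xbp1*. Of the other sensors, *Atf6* fell in *Rnaseh2b*ΔIEC against WT organoids (-0.22, adjusted p = 0.021), or was at -0.01 (adjusted p = 0.90) with lane as a covariate, and *Eif2ak3* passed in no pairwise comparison.

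**Figure D3:**
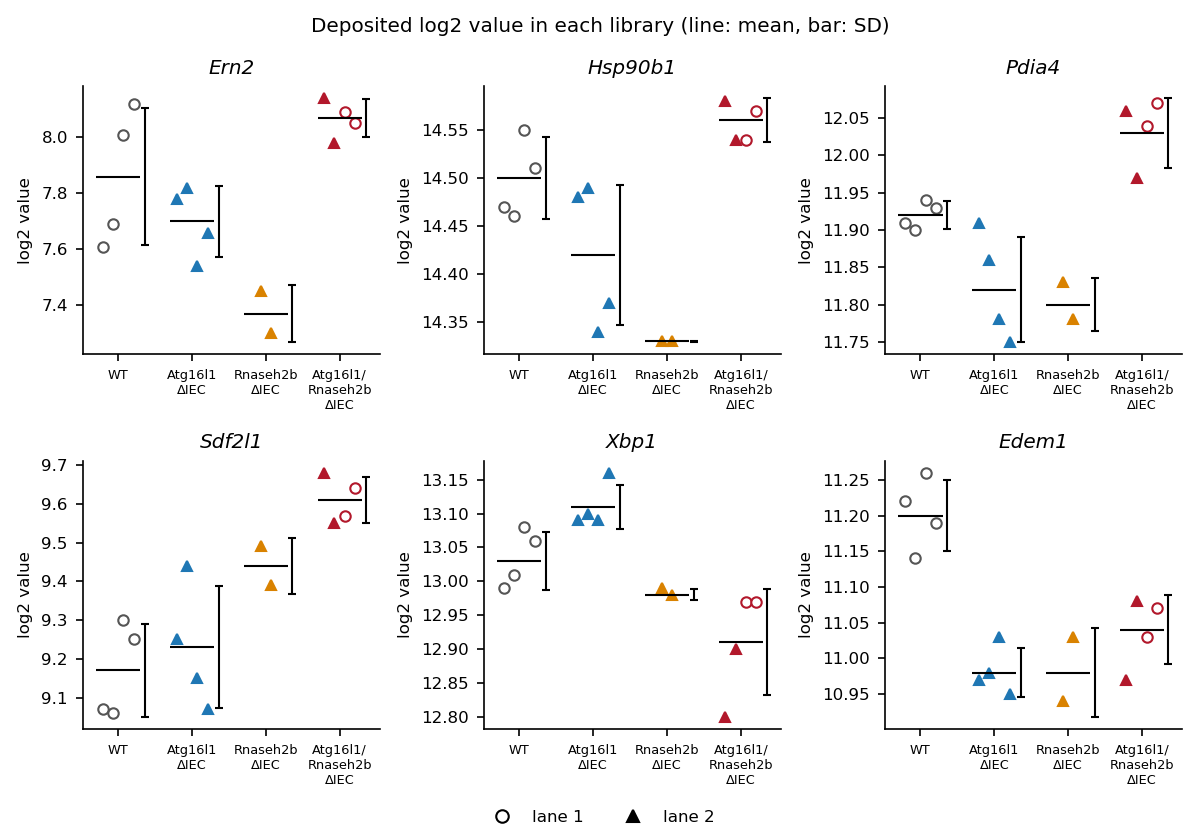
Deposited log2 value of 6 genes in each of the 14 libraries, by genotype (open circles lane 1, filled triangles lane 2, horizontal line the mean, bar the SD). *Pdia4* and *Sdf2l1* are highest in *Atg16l1/Rnaseh2b*ΔIEC organoids with no overlap with the other genotypes, *Edem1* is lower in every knockout library than in every WT library, and the axes do not start at 0.

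Chaperones, 15 of the 33 genes tested, made up 6 of the 7 that rose in doubly deleted organoids against WT. They were 5 of 8 against *Rnaseh2b*ΔIEC and 8 of 9 against *Atg16l1*ΔIEC organoids, and these shares were not tested. With the library pairs as a block 0, 1 and 1 chaperones passed in these comparisons. *Sdf2l1*, which encodes a partner of the HSP40 protein ERdj3, was at 9.07, 9.06, 9.30 and 9.25 in WT libraries 1 to 4, 9.25, 9.44, 9.15 and 9.07 in *Atg16l1*ΔIEC, 9.49 and 9.39 in *Rnaseh2b*ΔIEC and 9.68, 9.55, 9.57 and 9.64 in *Atg16l1/Rnaseh2b*ΔIEC libraries. The 4 doubly deleted libraries were above all 10 others. It rose by 0.44 (SE 0.08, adjusted p = 0.0035) against WT, the largest rise of the 33 genes in that comparison, and by 0.38 (SE 0.08, adjusted p = 0.0039) against *Atg16l1*ΔIEC organoids. *Creld2*, a gene known to respond to ER stress, was at 9.25, 9.23, 9.21 and 9.23 in WT libraries 1 to 4, 9.45, 9.35, 9.21 and 9.21 in *Atg16l1*ΔIEC, 9.45 and 9.33 in *Rnaseh2b*ΔIEC and 9.57, 9.47, 9.47 and 9.52 in *Atg16l1/Rnaseh2b*ΔIEC libraries. Its doubly deleted libraries were above all others, and the rise against WT was 0.28 (SE 0.05, adjusted p = 0.0058). Within lane 1 the rises against WT were 0.43 for *Sdf2l1* (adjusted p = 0.018) and 0.27 for *Creld2* (adjusted p = 0.0076), and with the library pairs as a block their adjusted p were 0.072 and 0.12.

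*Pdia4*, a protein disulfide isomerase of the BiP complex, was at 11.91, 11.90, 11.94 and 11.93 in WT libraries 1 to 4, 11.91, 11.86, 11.78 and 11.75 in *Atg16l1*ΔIEC, 11.83 and 11.78 in *Rnaseh2b*ΔIEC and 12.06, 11.97, 12.04 and 12.07 in *Atg16l1/Rnaseh2b*ΔIEC libraries. Here too the doubly deleted libraries lay above all others. The rise was 0.11 (SE 0.04, adjusted p = 0.044) against WT, 0.23 (SE 0.04, adjusted p = 0.0027) against *Rnaseh2b*ΔIEC and 0.21 (SE 0.04, adjusted p = 0.0016) against *Atg16l1*ΔIEC organoids. With the library pairs as a block the last of these had an adjusted p of 0.044 and the second 0.054. *Hsp90b1*, the gene of GRP94, was at 14.47, 14.46, 14.55 and 14.51 in WT libraries 1 to 4, 14.48, 14.49, 14.34 and 14.37 in *Atg16l1*ΔIEC, 14.33 and 14.33 in *Rnaseh2b*ΔIEC and 14.58, 14.54, 14.54 and 14.57 in *Atg16l1/Rnaseh2b*ΔIEC libraries. Both *Rnaseh2b*ΔIEC libraries were below all others and the WT and doubly deleted libraries overlapped. It rose in doubly deleted organoids by 0.22 (SE 0.05, adjusted p = 0.0055) against *Rnaseh2b*ΔIEC and by 0.14 (SE 0.04, adjusted p = 0.024) against *Atg16l1*ΔIEC organoids, and within lane 2 the first passed (adjusted p = 0.035) and the second did not (adjusted p = 0.086).

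*Hspa5*, which encodes BiP, the main ER HSP70 and the repressor of the sensors, was at 14.49, 14.47, 14.54 and 14.51 in WT libraries 1 to 4, 14.54, 14.56, 14.41 and 14.45 in *Atg16l1*ΔIEC, 14.37 and 14.35 in *Rnaseh2b*ΔIEC and 14.45, 14.48, 14.65 and 14.67 in *Atg16l1/Rnaseh2b*ΔIEC libraries. The doubly deleted libraries split by lane, which is also the split into library pairs. Library 1 was below all WT libraries, library 2 within their range, and libraries 3 and 4 above all others. Against WT its fold change was 0.06 (95% confidence interval -0.06 to 0.17, adjusted p = 0.48) over all libraries and 0.15 (adjusted p = 0.044) within lane 1, and against *Rnaseh2b*ΔIEC organoids it was 0.20 (SE 0.07, adjusted p = 0.037) over all libraries and 0.10 (adjusted p = 0.24) within lane 2. *Hyou1*, a nucleotide exchange factor of BiP, was at 12.58, 12.59, 12.64 and 12.63 in WT libraries 1 to 4, 12.72, 12.62, 12.55 and 12.59 in *Atg16l1*ΔIEC, 12.49 and 12.42 in *Rnaseh2b*ΔIEC and 12.65, 12.68, 12.75 and 12.77 in *Atg16l1/Rnaseh2b*ΔIEC libraries. Both *Rnaseh2b*ΔIEC libraries were below all others, and the difference between doubly deleted and *Rnaseh2b*ΔIEC organoids was 0.26 (SE 0.05, adjusted p = 0.0023).

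*Calr* was at 14.25, 14.25, 14.33 and 14.28 in WT libraries 1 to 4, 14.29, 14.27, 14.17 and 14.16 in *Atg16l1*ΔIEC, 14.35 and 14.27 in *Rnaseh2b*ΔIEC and 14.48, 14.42, 14.38 and 14.39 in *Atg16l1/Rnaseh2b*ΔIEC libraries. Its doubly deleted libraries were above all others, and it rose against *Atg16l1*ΔIEC organoids by 0.20 (SE 0.04, adjusted p = 0.0044). *Dnajb11*, the gene of ERdj3, was at 11.31, 11.27, 11.29 and 11.29 in WT libraries 1 to 4, 11.51, 11.43, 11.39 and 11.36 in *Atg16l1*ΔIEC, 11.48 and 11.47 in *Rnaseh2b*ΔIEC and 11.54, 11.49, 11.39 and 11.41 in *Atg16l1/Rnaseh2b*ΔIEC libraries. Every knockout library was above every WT library, with rises of 0.19, 0.13 and 0.17 in *Rnaseh2b*ΔIEC, *Atg16l1*ΔIEC and doubly deleted organoids. With lane as a covariate the first 2 were 0.07 (adjusted p = 0.46) and 0.02 (adjusted p = 0.87). *Dnajb9*, an HSP40 gene and target of XBP1, was at 8.74, 8.85, 8.83 and 8.76 in WT libraries 1 to 4, 8.65, 8.56, 8.53 and 8.56 in *Atg16l1*ΔIEC, 8.73 and 8.62 in *Rnaseh2b*ΔIEC and 8.59, 8.70, 8.70 and 8.65 in *Atg16l1/Rnaseh2b*ΔIEC libraries. It fell in *Atg16l1*ΔIEC organoids by 0.22 (SE 0.05, adjusted p = 0.0054), with an adjusted p of 0.12 when lane was a covariate. *P4hb* rose by 0.23 in *Rnaseh2b*ΔIEC against WT (adjusted p = 0.031) and fell by 0.26 in doubly deleted against *Rnaseh2b*ΔIEC organoids (adjusted p = 0.019), and neither passed with the library pairs as a block (adjusted p = 0.25 and 0.20), nor the first with lane as a covariate (0.085) or the second within lane 2 (0.055). *Manf* and *Pdia6* passed in no pairwise comparison.

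Among the ERAD genes, *Edem1* fell in all 3 knockout genotypes. It encodes a lectin-like protein that marks misfolded glycoproteins for degradation. Its values were 11.22, 11.14, 11.26 and 11.19 in WT libraries 1 to 4, 10.97, 10.98, 11.03 and 10.95 in *Atg16l1*ΔIEC, 10.94 and 11.03 in *Rnaseh2b*ΔIEC and 10.97, 11.08, 11.03 and 11.07 in *Atg16l1/Rnaseh2b*ΔIEC libraries. No knockout library reached the lowest WT library. The fall against WT was 0.22 (SE 0.04, adjusted p = 0.0031) in *Rnaseh2b*ΔIEC, 0.22 (SE 0.03, adjusted p = 0.0011) in *Atg16l1*ΔIEC and 0.16 (SE 0.03, adjusted p = 0.0090) in doubly deleted organoids. Within lane 1 the last was -0.15 (adjusted p = 0.049), with lane as a covariate the first 2 were both -0.19 (adjusted p = 0.071 and 0.052), and with the library pairs as a block their adjusted p were 0.12, 0.091 and 0.24.

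*Sel1l*, the scaffold of the HRD1 ligase complex, was at 11.86, 11.87, 11.98 and 11.87 in WT libraries 1 to 4, 11.83, 11.80, 11.74 and 11.78 in *Atg16l1*ΔIEC, 11.67 and 11.66 in *Rnaseh2b*ΔIEC and 11.73, 11.80, 11.88 and 11.87 in *Atg16l1/Rnaseh2b*ΔIEC libraries. Both *Rnaseh2b*ΔIEC libraries were lowest, and the fall against WT was 0.23 (SE 0.05, adjusted p = 0.0040), or -0.12 (adjusted p = 0.21) with lane as a covariate. *Derl1*, a derlin of the retrotranslocation step, was at 11.62, 11.68, 11.69 and 11.68 in WT libraries 1 to 4, 11.78, 11.74, 11.78 and 11.80 in *Atg16l1*ΔIEC, 11.69 and 11.69 in *Rnaseh2b*ΔIEC and 11.57, 11.62, 11.68 and 11.67 in *Atg16l1/Rnaseh2b*ΔIEC libraries. The 4 *Atg16l1*ΔIEC libraries were above all others, by 0.11 (SE 0.03, adjusted p = 0.019) over WT. With lane as a covariate that rise was 0.18 (adjusted p = 0.014). *Syvn1*, the HRD1 ligase itself, *Herpud1* and *Derl2* passed in none of these comparisons.

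The translocation genes varied least. Their fold changes ran from -0.16 to 0.13 over the 6 pairwise comparisons. *Ssr1*, a subunit of the translocon-associated TRAP complex, was at 13.02, 13.05, 13.05 and 12.99 in WT libraries 1 to 4, 13.13, 13.12, 13.10 and 13.11 in *Atg16l1*ΔIEC, 13 and 13 in *Rnaseh2b*ΔIEC and 13.01, 13.03, 13.04 and 13.05 in *Atg16l1/Rnaseh2b*ΔIEC libraries. The *Atg16l1*ΔIEC libraries were above all others by a small margin, 0.09 (SE 0.02, adjusted p = 0.023) over WT, and *Ssr1* was the gene that differed between the single knockouts, at -0.11 (SE 0.03, adjusted p = 0.036). *Ssr2* rose in doubly deleted organoids by 0.10 against WT and by 0.13 against *Rnaseh2b*ΔIEC, and *Ssr3* fell by 0.09 against *Atg16l1*ΔIEC organoids. None of these differences of *Ssr1*, *Ssr2* and *Ssr3* passed within 1 lane or, for *Ssr1* against WT, with lane as a covariate. *Sec61a1* and *Sec61b* of the channel, the signal peptidase gene *Sec11c* and the oligosaccharyltransferase gene *Ostc* passed in no pairwise comparison.

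The design also allows a test of whether *Rnaseh2b* deletion acts differently with and without *Atg16l1*. The 2 effects compared do not rest on equal losses, since *Rnaseh2b* itself was lower by 1.36 in the one case and by 0.81 in the other, a difference of 0.55 (SE 0.12, adjusted p = 0.0037, and 0.066 with the library pairs as a block), and *Atg16l1* was higher in doubly deleted than in *Atg16l1*ΔIEC organoids. The effect of *Rnaseh2b* deletion on a gene in *Atg16l1*-deficient organoids minus its effect in *Atg16l1*-proficient organoids was past the threshold for 11 of 33 genes, with 9 positive and 2 negative, where 17% of all genes were positive and 18.1% negative. The 9 were 6 chaperones (*Pdia4*, *Hsp90b1*, *Hyou1*, *Pdia6*, *Dnajb9* and *Dnajc3*), *Ern2*, *Sel1l* and *Edem1*, and the 2 were *P4hb* and *Derl1*. The median difference was 0.08 over the 33 genes and 0.17 over the 15 chaperones. *Ern2* had the largest at 0.85 (SE 0.16, adjusted p = 0.0018), being 0.48 lower with *Rnaseh2b* deletion alone and 0.37 higher with it in *Atg16l1*-deficient organoids. Among the positive differences *Pdia4* followed at 0.33 (SE 0.06, adjusted p = 0.0009), then *Hsp90b1* at 0.30 (SE 0.06, adjusted p = 0.0028) and *Edem1* at 0.27 (SE 0.06, adjusted p = 0.0024). *P4hb* was at -0.34 (SE 0.09, adjusted p = 0.014). *Hspa5* (0.22, adjusted p = 0.059) and *Xbp1* (-0.15, adjusted p = 0.063) did not pass. With total scaling 14 were positive and 1 negative, where 2933 of all genes were positive and 1778 negative. The positive share of all-gene calls was then 62.3%, beside 48.5% without that scaling. With lane as a covariate, which only the doubly deleted libraries can estimate, 4 passed, where 20.2% of all genes did, namely *Ern2* (0.85, adjusted p = 0.049), *Hsp90b1* (0.31, adjusted p = 0.050), *Xbp1* (-0.33, adjusted p = 0.014) and *Derl1* (-0.27, adjusted p = 0.012), and the value of *Pdia6* turned from 0.23 to -0.01. With the library pairs as a block *Ern2*, *Pdia4* and *Hsp90b1* passed, 3 of 33, where 12.1% of all genes did, and without *Rnaseh2b*ΔIEC library 2 the count was 5.

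The genes with an ERSE in the promoter window can be set beside those without. Of the 9, 8 were tested (*Hspa5*, *Hsp90b1*, *Dnajc3*, *Calr*, *Canx*, *Pdia6*, *Creld2* and *Syvn1*). In doubly deleted against WT organoids all 8 had positive fold changes, from 0.01 to 0.28, with a median of 0.06, and 3 of them rose (*Creld2*, *Dnajc3* and *Calr*), where 8.1% of all genes rose. None of these passed with the library pairs as a block. The 16 tested genes with a window but no match had a median of 0.01, with 3 rising and 3 falling. Except *Syvn1*, the 8 with the element are chaperones, while the 16 come from all classes, so these medians do not separate element from class. Of these 16 the chaperones were at 0.44 (*Sdf2l1*), 0.17 (*Dnajb11*), 0.15 (*Pdia3*), 0.11 (*Pdia4*), -0.03 (*P4hb*) and -0.13 (*Dnajb9*). Against *Rnaseh2b*ΔIEC organoids the medians were 0.13 with and 0.04 without the element, and against *Atg16l1*ΔIEC organoids 0.12 and 0.00. In the single knockouts against WT the medians were -0.03 with and -0.02 without the element in *Rnaseh2b*ΔIEC, and -0.04 and 0.06 in *Atg16l1*ΔIEC organoids, where the order was the opposite. The largest riser, *Sdf2l1*, has a window without a match, and so has *Pdia4*. These are descriptions of small groups, with no test, and the letters being absent from a window says nothing about a factor acting elsewhere.

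Other genes of the same pathways were taken from lists by function. Of 79 tested, 10 rose (12.7%) and 3 fell (3.8%) in doubly deleted against WT organoids, where 8.1% and 8.01% of all genes did. In *Rnaseh2b*ΔIEC against WT 11 rose (13.9%) and 17 fell (21.5%), beside 14.4% and 12.3% of all genes, and in *Atg16l1*ΔIEC against WT 6 rose (7.59%) and 7 fell (8.86%), beside 8.73% and 10.4%. Under the pair block these counts were 0, 5 lower and 2 lower, and in the single knockouts with lane as a covariate 2 lower and 4 higher. Within lane 1, 3 folding genes of these lists rose in doubly deleted against WT organoids. There 1 gene fell in each of the ERAD, translocation and ER-Golgi transport lists, where 597 of all genes rose and 714 fell. Among 15 other folding and quality control genes, 4 rose and none fell in doubly deleted against WT organoids, led by the disulfide isomerase gene *Pdia5* at 0.40 (SE 0.08, adjusted p = 0.0061), or an adjusted p of 0.083 with the pairs as a block. In the same list 8 rose and 1 fell against *Rnaseh2b*ΔIEC organoids and 6 rose against *Atg16l1*ΔIEC organoids. With the pairs as a block the 3 counts were 0, 0 and 1 higher, the last being *Dnajc10*. *Uggt1*, the glucosyltransferase that returns unfolded glycoproteins to the calnexin cycle, rose by 0.23 (SE 0.04, adjusted p = 0.0023) and 0.21 (SE 0.03, adjusted p = 0.0015) in these comparisons, and *Dnajc10*, an ER reductase gene, rose by 0.32 (SE 0.06, adjusted p = 0.0021) against *Atg16l1*ΔIEC organoids. Within lane 2 all 3 of these differences passed, and with the pairs as a block those of *Uggt1* had adjusted p of 0.078 and 0.064.

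Larger falls than those of the 34 genes were found among these lists. *Ero1l*, which encodes the oxidase that recharges PDI, fell by 1.29 in *Rnaseh2b*ΔIEC (SE 0.21, adjusted p = 0.0012) and by 0.88 in *Atg16l1*ΔIEC organoids (SE 0.18, adjusted p = 0.0044), and was at -0.43 in doubly deleted organoids (adjusted p = 0.11). The first 2 were, with lane as a covariate, -0.51 (adjusted p = 0.066) and -0.09 (adjusted p = 0.73), and the last was -0.04 (adjusted p = 0.77) within lane 1. With the pairs as a block the 3 adjusted p were 0.013, 0.043 and 0.36. Its effect of *Rnaseh2b* deletion differed with *Atg16l1* by 1.74 (SE 0.28, adjusted p = 0.00056), or by 0.56 (adjusted p = 0.10) with lane as a covariate. That difference had an adjusted p of 0.0066 with the pairs as a block. Of 8 targets of the PERK-ATF4 branch, 6 fell in *Rnaseh2b*ΔIEC against WT, with a median over the list of -0.54, 2 fell in *Atg16l1*ΔIEC and 1 in doubly deleted organoids, and none rose. A term for lane left 1 that fell in *Rnaseh2b*ΔIEC, with a median of -0.04. With it 3 rose in *Atg16l1*ΔIEC organoids, although *Ddit3*, given next, stayed negative there. With the pairs as a block 2 fell in *Rnaseh2b*ΔIEC and 1 in *Atg16l1*ΔIEC organoids. *Ddit3*, the gene of the transcription factor CHOP, fell by 0.93 in *Rnaseh2b*ΔIEC (adjusted p = 0.0012), by 0.73 in *Atg16l1*ΔIEC (adjusted p = 0.0019) and by 0.52 in doubly deleted organoids (adjusted p = 0.017). With the pairs as a block the adjusted p were 0.018, 0.031 and 0.15, and within lane 1 the last was 0.14. With lane as a covariate the first 2 fold changes were -0.83 (adjusted p = 0.041) and -0.62 (adjusted p = 0.082). *Srp68*, a subunit of the signal recognition particle, fell by 0.23 in *Rnaseh2b*ΔIEC organoids (adjusted p = 0.00022). The 15 other ERAD genes and the 26 tested of 27 other translocation genes had medians between -0.02 and 0.04 in every pairwise comparison, and 15 genes of ER-Golgi transport had medians between -0.05 and 0.07.

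Markers of the epithelial cell types moved between the genotypes too. The summed linear level of 8 goblet cell genes, led by *Fcgbp*, was 15.93, 15.93, 16.42 and 16.41 in WT libraries 1 to 4, 15.75, 15.73, 15.45 and 15.67 in *Atg16l1*ΔIEC, 15.69 and 15.54 in *Rnaseh2b*ΔIEC and 16.61, 16.49, 16.44 and 16.34 in *Atg16l1/Rnaseh2b*ΔIEC libraries on the log2 scale. All 6 single-knockout libraries were below all WT libraries for this sum, while for *Ern2* the *Atg16l1*ΔIEC libraries overlapped WT. Both measures were high in the 4 doubly deleted libraries and in WT libraries 3 and 4. Against WT, 3 of the 8 goblet genes fell in *Rnaseh2b*ΔIEC and 5 in *Atg16l1*ΔIEC organoids, or 2 and 2 with the pairs as a block. All 8 were higher in doubly deleted than in *Atg16l1*ΔIEC organoids and 7 than in *Rnaseh2b*ΔIEC organoids, and 1 rose and 1 fell against WT, or none with the pairs as a block. *Agr2*, a goblet gene of the disulfide isomerase family that was singled out after its values were seen, was higher by 0.73 (SE 0.17, adjusted p = 0.0073) than in *Rnaseh2b*ΔIEC organoids. All 8 had a positive difference between the *Rnaseh2b* effects with and without *Atg16l1* that passed, with a median of 1.09. With the pairs as a block 3 goblet genes were higher than in *Atg16l1*ΔIEC and 5 than in *Rnaseh2b*ΔIEC organoids and 6 passed for that difference, and within lane 2 the first counts were 7 and 6.

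The summed level of 8 Paneth cell genes, led by *Itln1*, was 15.01, 14.97, 15.09 and 15.08 in WT libraries 1 to 4, 15.03, 15.12, 14.46 and 14.53 in *Atg16l1*ΔIEC, 14.99 and 14.74 in *Rnaseh2b*ΔIEC and 15.87, 15.52, 15.57 and 15.47 in *Atg16l1/Rnaseh2b*ΔIEC libraries. The 4 doubly deleted libraries were above all others, and 4 of the 8 genes rose against WT with none falling (3 within lane 1, 0 with the pairs as a block). The same libraries were those with the highest *Sdf2l1*, *Creld2*, *Calr* and *Pdia4*. Other ER genes did not follow the Paneth sum. *Atg16l1/Rnaseh2b*ΔIEC library 1, with the highest sum, had the lowest *Xbp1* (12.80) and *P4hb* (15.74) of all libraries. Its *Hspa5* (14.45) was below all WT libraries.

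Of 9 enterocyte genes, led by *Sis*, 8 rose in *Rnaseh2b*ΔIEC against WT, with a median of 1.22, and 8 fell in doubly deleted against *Rnaseh2b*ΔIEC organoids, with a median of -1.15. Their summed level was 17.46, 17.27, 16.89 and 16.85 in WT libraries 1 to 4, 17.05, 16.92, 17.68 and 17.44 in *Atg16l1*ΔIEC, 17.92 and 18.07 in *Rnaseh2b*ΔIEC and 16.76, 17.11, 16.64 and 16.71 in *Atg16l1/Rnaseh2b*ΔIEC libraries. Both *Rnaseh2b*ΔIEC libraries, which were lowest in *Ern2*, *Hsp90b1* and *Hyou1*, were above all others. With the pairs as a block 4 rose and 6 fell in these comparisons, with lane as a covariate 3 rose in the first, and within lane 2 8 fell in the second. The difference between the *Rnaseh2b* effects was negative and passed for 7 of the 9, with a median of -1.48, or for 1 with lane as a covariate.

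Of 7 stem cell genes, led by *Slc12a2*, 6 fell in *Atg16l1*ΔIEC against WT organoids, 6 were higher in doubly deleted than in *Atg16l1*ΔIEC organoids, with a median of 0.50, and 6 had a positive difference between the *Rnaseh2b* effects, with a median of 0.75. With the pairs as a block these counts were 2, 4 and 6. In doubly deleted against WT organoids 1 stem cell gene fell and none rose, with a lowest fold change in the list of -1.51. Against *Rnaseh2b*ΔIEC organoids 2 rose and 1 fell, with a lowest of -1.34. Of 8 enteroendocrine genes, led by *Chgb*, 4 were higher in doubly deleted than in *Rnaseh2b*ΔIEC organoids. Of 5 tested tuft cell genes 4 fell in *Rnaseh2b*ΔIEC against WT, and of 5 cycling genes 1 fell there, and in the pair block these 3 counts were 1, 1 and 0. The part of these markers in the changes of the ER genes was not tested.

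**Figure D4:**
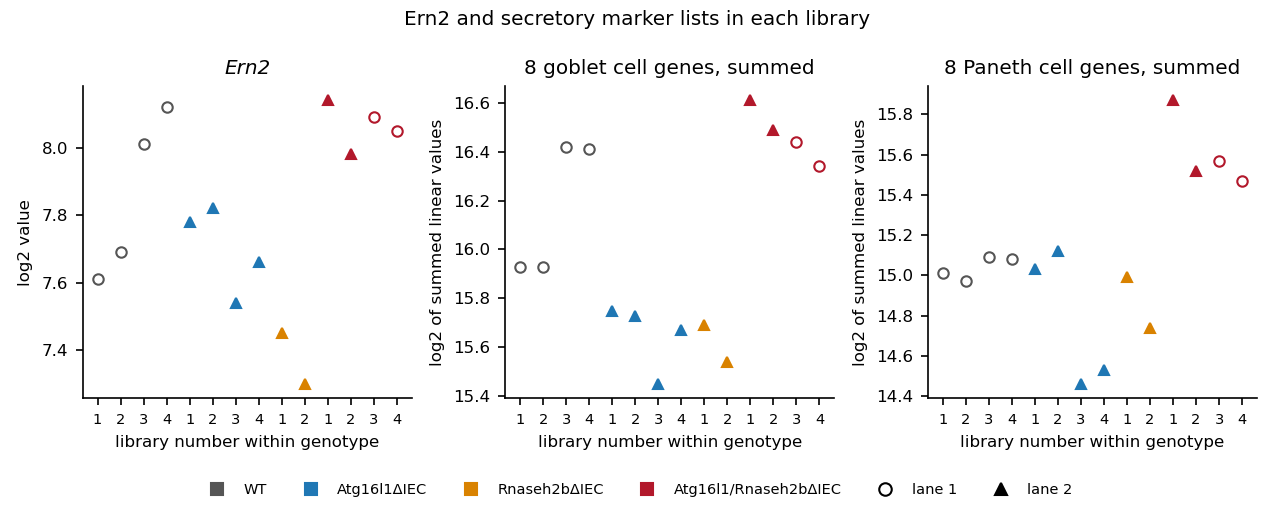
Log2 value of *Ern2* and summed linear level (log2) of 8 goblet cell genes and 8 Paneth cell genes in each of the 14 libraries, by genotype, with symbols for lane. *Ern2* is lowest in the 2 *Rnaseh2b*ΔIEC libraries and overlaps between *Atg16l1*ΔIEC and WT, the goblet sum reaches 15.75 at most in the single knockouts and lies at 16.34 to 16.61 in *Atg16l1/Rnaseh2b*ΔIEC libraries, and the Paneth sum is highest in the latter, at 15.47 to 15.87.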

How the data were processed

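Per the labels and the study's methods, the authors used cutadapt for trimming, TopHat2 for alignment to GRCm38, HTSeq for gene counts and DESeq2 for normalisation; versions are not given in the sources used here. The deposited values are log2 values by the authors, and their transformation is not named. They ran from -2.13 to 17.45, 16.9% lay below 0, and whole reads could not be recovered, so the depth of each library is unknown. The median SD over libraries was 0.00103 for genes from -3 to -2, 0.151 from 6 to 7 and 0.0926 from 10 to 11. No column lacked a sample. Symbols were matched for 99.7% of gene IDs through GENCODE M21; Srp54a and Col3a1 were not matched, and Ufd1l is listed as *Ufd1*.

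A gene was tested if its mean reached 3.32, which is 10 in linear units. The test was limma 3.58.1 in R 4.3.3, fitted to all 4 genotypes at once, with an eBayes trend, 10 residual and 3.34 prior degrees of freedom, and Benjamini-Hochberg adjustment over the 12802 genes at 0.05. Confidence intervals are at 95%. Values in each library are printed for *Xbp1*, *Hspa5*, *Ern2*, *Derl3*, the targeted genes and at most the 4 members with the smallest adjusted p in each comparison. Other members are named where they are counted, some with fold changes. At most 3 genes of the other pathway lists are named in each comparison. The members and lists were chosen with earlier results of these data known. The alternatives were pseudocounts of 1 and 5 on the back-transformed values, filters, scalings, variance models, lane, library pairs (random block, consensus correlation 0.645, or averaged), a replicate block, fits restricted to the compared groups, and leaving out each library. The fits were checked on simulated data. Sums over markers are of linear values. Levels per kilobase are the log2 value minus the log2 of the exon length. Promoter windows are from RefSeq on GRCm38.p6. Tables and figures were made with Python 3.11.15, pandas 2.3.3 and matplotlib 3.10.9. By the methods, further *Rnaseh2b*ΔIEC libraries were left out by the authors for their read counts and are not analysed here. Lane and pair fits of the other lists were added after seeing the data. One gene of the enterocyte list is not reported here.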

Additional observations from a re-analysis of the deposited data

Results flagged for a closer look

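Among 102 groups of 4 libraries, 4 had a highest or lowest library far from the other 3 by Dixon's test, where chance gives about 1 in 20. *Xbp1* in *Atg16l1*ΔIEC library 4 was at 13.16, with the next at 13.10. *Sel1l* in WT library 3 was at 11.98, with the next at 11.87, and *Derl1* in WT library 1 was at 11.62, with the next at 11.68. *Derl3* in WT library 4 was at 0.63, with the next at 0.64, a gap within a range too narrow to read.

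For 11 genes the effect of *Rnaseh2b* deletion differed between *Atg16l1*-deficient and *Atg16l1*-proficient organoids by limma's test of that difference (log2). It was higher in *Atg16l1*-deficient organoids by 0.85 for *Ern2*, 0.33 for *Pdia4*, 0.30 for *Hsp90b1*, 0.27 for *Edem1*, 0.26 for *Sel1l*, 0.25 for *Hyou1*, 0.23 for *Pdia6*, 0.21 for *Dnajb9* and 0.19 for *Dnajc3*. For *P4hb* and *Derl1* it was -0.34 and -0.16.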

How the results depend on the processing

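The 60 calls on single genes kept their direction in every fit run, except *Pdia6*, whose difference between *Rnaseh2b* effects was -0.01 with lane as a covariate. All 60 passed under a pseudocount of 1, a filter of 50 and robust variance. Fewer passed under a pseudocount of 5 (59), upper quartile scaling (57), median centring and no trend (55 each), total scaling (54), no filter (53), lane as a covariate (30) and the pairs as a random block (6). Within 1 lane 17 of 34 passed and with only the groups compared 34 of 49. With the pairs averaged none passed, but that fit called at most 2 of the 12802 genes in any comparison and so says nothing about these calls; the counts at an unadjusted p under 0.05 were 4, 2, 6, 4, 7, 0 and 6 in the order used next. In the comparisons of *Rnaseh2b*ΔIEC with WT, *Atg16l1*ΔIEC with WT, the doubly deleted with WT, with *Rnaseh2b*ΔIEC and with *Atg16l1*ΔIEC, *Rnaseh2b*ΔIEC with *Atg16l1*ΔIEC and the interaction, the counts of 10, 5, 10, 9, 14, 1 and 11 became 0, 0, 0, 2, 1, 0 and 3 with the pairs as a random block and 0 in each in the averaged fit. With lane as a covariate the first, second and last were 0, 2 and 4, and the comparison of the single knockouts was 5. Within 1 lane the doubly deleted organoids had 4 against *Rnaseh2b*ΔIEC and 7 against *Atg16l1*ΔIEC, and with only the groups compared 5 and 7. The single knockouts differed in 2 genes under upper quartile and 5 under total scaling. Under total scaling the medians were -0.07 for *Rnaseh2b*ΔIEC against WT, 0.14 for the doubly deleted against *Rnaseh2b*ΔIEC, -0.10 for the single knockouts and 0.14 for the interaction, and the share of calls that were higher over all genes moved from 54.0% to 39.6%, 43.4% to 64.6%, 63.8% to 44.4% and 48.5% to 62.3%. The cause of these shifts was not tested.

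Leaving out each library in turn, the counts ranged from 1 to 9, 3 to 5, 6 to 8, 0 to 10, 6 to 13, 0 to 2 and 5 to 14, and the medians from -0.05 to -0.02, 0.03 to 0.06, 0.03 to 0.07, 0.06 to 0.09, 0.02 to 0.05, -0.09 to -0.04 and 0.05 to 0.11, in the same order. Where 1 *Rnaseh2b*ΔIEC library was left, it was taken to vary like the other groups. Replicate numbers did not pair libraries across genotypes (18 pairs, correlations of -0.50 to 0.44). With the replicate number as a block the counts were 5, 6, 10, 8, 11, 0 and 12. Not run, because the lanes or groups do not allow it, were the comparisons of a single knockout with WT and the interaction within 1 lane. With the depth unknown, no limit of detection can be given, and *Derl3* was not detectable as changed on this scale.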
